A study of Mus musculus with 2 samples.

Results

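Neutrophils in denervated mouse muscle were taken here as the barcodes of the deposited single-cell matrices that met a fixed rule. A barcode was kept if over 200 genes were detected and mitochondrial transcripts made up under 10% of its UMIs (unique molecular identifiers, each standing for a captured transcript). A neutrophil then needed at least 10 UMIs of *S100a8* plus *S100a9*, a UMI in at least 2 of the 7 genes *Retnlg*, *Cxcr2*, *Hdc*, *Il1f9*, *Asprv1*, *Stfa2l1* and *G0s2*, and no UMI of the macrophage genes *C1qa*, *C1qb* or *Csf1r*. By this rule 936 of 48143 kept barcodes were neutrophils. The study asked what blockade of secreted phosphoprotein 1 (SPP1, also known as osteopontin) does during the denervation and reinnervation of muscle. Male mice of strain C57BL/6J per the labels, 10 to 16 weeks old, had the peroneal nerve of both legs injured. The tibialis anterior (TA) muscle received either an antibody that neutralizes SPP1 (SPP1-nAb, 2 μg in 10 μL) or 2 μg of goat anti-mouse IgG as the control. Injections were repeated every 2 days, and muscle was taken at 7 days after injury (7 dpi). The methods of the study state that the mice of the antibody experiment carried an *S100GFP* transgene, a reporter for Schwann cells, so the reporter was common to the IgG and the SPP1-nAb group and no allele differed between them. Each condition was 1 library of sorted live cells, the number of animals pooled in it was not given in the sources used here, and the labels name TA and gastrocnemius muscle although only TA was injected. The library titles say GFP-positive while the protocol sorted GFP-positive and GFP-negative cells, in a ratio not given, so the shares below describe the libraries and not the muscle.

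With 1 library per condition there was no replicate check, and no difference between the libraries was tested. All intervals below are exact 95% intervals (Clopper-Pearson for shares, Poisson for summed UMIs, conditional binomial for ratios) and cover counting error only. A level is the gene's UMIs summed over the neutrophils of a library, divided by all UMIs of those cells and given per 1000000 UMIs (CPM), and a log2 ratio is SPP1-nAb over IgG. The IgG library held 23385 kept barcodes with a median of 3822 UMIs, and the SPP1-nAb library held 24758 with a median of 4756. The neutrophils were shallower. They had a median of 1292 UMIs and 636 genes in the IgG library and of 1423 UMIs and 699 genes in the SPP1-nAb library, and together they gave 466297 and 1085231 UMIs. The libraries shared 163 barcode sequences, and none of these was a neutrophil in both.

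Neutrophils are short-lived granulocytes that leave the bone marrow with most of their granule proteins already made, enter injured tissue along gradients of CXCR2 ligands and other chemoattractants, and are followed by monocytes and macrophages. In tissue they release proteases, oxidants, IL-1 family cytokines and chemokines, and they take up signals from interferons, microbial products and dying cells. S100A8 and S100A9, which form calprotectin, are among their most plentiful proteins.

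The values that chose the members are given as a description. *S100a8* (GRCm39 chromosome 3, 90567118 to 90578128, plus strand) stood at 23665 CPM in the IgG and 23412 CPM in the SPP1-nAb neutrophils, against 50.5 and 211 CPM in all other kept barcodes. *S100a9* (chromosome 3, 90599931 to 90603071, minus strand) stood at 35799 and 32473 CPM, and the 2 genes together gave 5.95% and 5.59% of the neutrophils' UMIs. *Cxcr2*, the receptor for the CXCL chemokines that draw neutrophils into tissue, was at 804 and 851 CPM against 2.91 and 6.55 CPM elsewhere. *Retnlg*, a resistin-like secreted protein of neutrophils, was at 1643 and 1098 CPM, and *Hdc*, which makes histamine, was at 1360 and 1041 CPM. *Asprv1*, a retroviral-like aspartic protease, was at 714 and 908 CPM, and *Il1f9*, a cytokine of the IL-1 family, at 678 and 797 CPM.

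Genes outside the rule were checked against the label. *Csf3r*, the receptor for granulocyte colony-stimulating factor, had a UMI in 207 of 299 IgG and 456 of 637 SPP1-nAb neutrophils, at 989 and 946 CPM, against 36.1 and 49.5 CPM in all other kept barcodes. The list of 10 neutrophil genes not used by the rule (*Csf3r*, *Mmp9*, *Mmp8*, *Lcn2*, *Ltf*, *Camp*, *Ngp*, *Cd177*, *Trem3*, *Padi4*) summed to 3397 and 3122 CPM in the neutrophils and to 71.8 and 141 CPM elsewhere, and each of its genes had a UMI in the neutrophils of both libraries. The 15 genes with the highest level in neutrophils relative to all other barcodes, which the choice of members also shaped, ranged from 317-fold to 62.7-fold. They included *Cstdc4*, a stefin-like protease inhibitor (317-fold), *Wfdc21*, a small secreted whey-acidic-protein homologue (103-fold), *Chil1*, a chitinase-like protein (83.0-fold), *Fpr1*, a receptor for formylated bacterial peptides (73.4-fold), *Hcar2*, a receptor for hydroxycarboxylic acids (71.1-fold), *Il1r2*, the decoy receptor for IL-1 (69.6-fold), *Pglyrp1*, which binds peptidoglycan (67.6-fold), and *Ltb*, lymphotoxin beta (62.7-fold). Of 2345 genes with at least 100 UMIs in the neutrophils of both libraries together, 467 (19.9%) were at least 2-fold above and 240 (10.2%) at least 2-fold below all other barcodes in both libraries. The label of neutrophils rests here on the fixed list of 10 genes, since the last counts include the genes of the rule and needed UMIs in the neutrophils themselves. *Csf3r* is part of that list and gave 29.9% of its UMIs, so it is not a separate support. The list's *Ngp*, *Camp* and *Ltf* rested on few cells, as described below, which raises its sum.

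Some neutrophils also carried transcripts of other lineages. At least 2 marker genes of a single other lineage had a UMI in 39 of 299 IgG neutrophils (13.04%) and in 137 of 637 SPP1-nAb neutrophils (21.5%), and these cells held 26.0% and 31.8% of the UMIs. Their median depth was 1762 and 1605 UMIs, against 1256 and 1389 UMIs in the rest. Most met the macrophage list (27 and 126 cells), which summed to 532 and 889 CPM in neutrophils against 8191 and 9229 CPM elsewhere, with *Apoe* as its most abundant gene. The monocyte list was at 403 and 252 CPM (most UMIs from *Fn1*), and the mesenchymal list at 4178 and 274 CPM (most from *Dcn*), the latter carried by a small group of deep barcodes described with cluster 5. The other lists were low: dendritic cells 21.5 and 87.5 CPM (*Cd209a* most abundant), B cells 66.5 and 39.6 CPM (*Ighm*), erythroid cells 66.5 and 42.4 CPM (*Hbb-bs*), platelets 45.0 and 51.6 CPM (*Pf4*) and T or NK cells 8.58 and 20.3 CPM (*Klrd1*). Satellite cell markers were at 45.0 and 43.3 CPM (*Chodl*), muscle fiber markers at 40.8 and 59.9 CPM (*Tnnt3*), Schwann cell markers at 27.9 and 17.5 CPM (*Gap43*), pericyte markers at 21.5 and 50.7 CPM (*Rgs5*) and endothelial markers at 6.43 and 11.98 CPM (*Cdh5*). Some of these also lay mostly in small clusters. With SPP1-nAb, cluster 6 held 75 of 95 dendritic UMIs, and cluster 5 held 36 of 47 satellite and 38 of 55 pericyte UMIs. With IgG, cluster 5 held 21 of 21 satellite UMIs. The basophil, eosinophil and mast cell list was at 4.29 and 8.29 CPM, with 6 of its 7 genes at 0 in both libraries and *Ccr3* as the only gene seen. No doublet caller was run beyond the rule, and removing the cells with other-lineage markers is given as an alternative.

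Barcodes just outside the S100 threshold also carried neutrophil genes. Members with 10 to 12 UMIs of *S100a8* plus *S100a9* numbered 17 in the IgG and 22 in the SPP1-nAb library, and barcodes with 7 to 9 that met every other criterion numbered 11 and 32. *Csf3r* was at 473 and 855 CPM just inside and at 602 and 581 CPM just outside, and *Mmp9* was at 557 and 1091 CPM inside and 652 and 943 CPM outside. In all, 127 IgG and 153 SPP1-nAb barcodes met the other criteria with fewer than 10 such UMIs, 34 and 99 had only 1 of the 7 further genes, and 86 and 273 were left out by a UMI of *C1qa*, *C1qb* or *Csf1r*.

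Neutrophils were a larger share of the SPP1-nAb library than of the IgG library. They were 299 of 23385 kept barcodes with IgG (1.28%, 1.14 to 1.43) and 637 of 24758 with SPP1-nAb (2.57%, 2.38 to 2.78). The difference was 1.29 percentage points (1.05 to 1.54) and the ratio 2.01 (1.75 to 2.32), beyond counting error. It was 1.25 points with the deeper library thinned to the depth of the other (299 and 627 neutrophils), 2.03 points with no limit on macrophage genes, and 0.908 points without the neutrophils that carried other-lineage markers. The median of *S100a8* plus *S100a9* UMIs per neutrophil was 51 in the IgG and 66 in the SPP1-nAb library, with ranges of 10 to 1792 and 10 to 1441 that overlapped throughout.

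**Figure D1:**
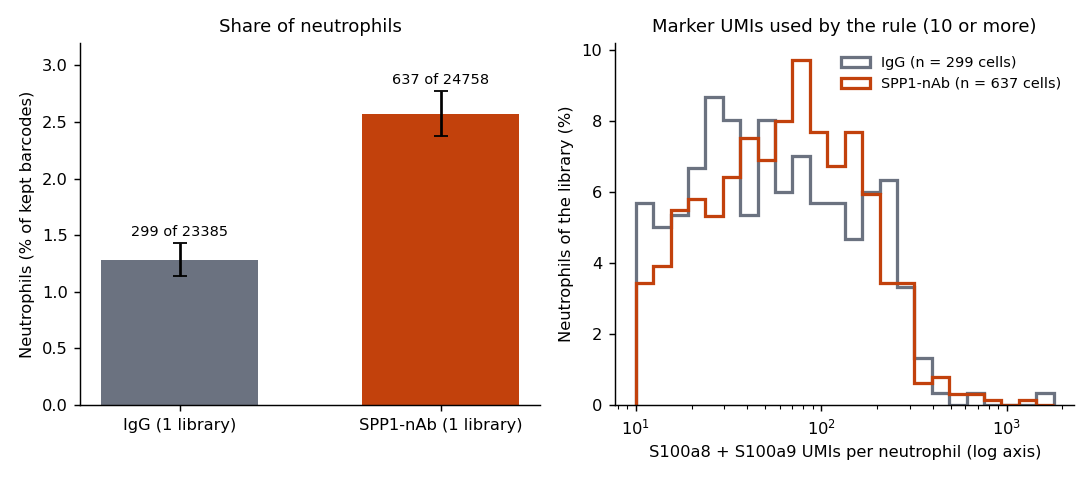
Left, neutrophils as a percentage of the kept barcodes of each library (bars; error bars, exact 95% intervals of counting error; 1 library per condition). Right, distribution of *S100a8* plus *S100a9* UMIs per neutrophil on a log axis, as a percentage of the library's neutrophils. The share was 1.28% with IgG and 2.57% with SPP1-nAb, and the 2 distributions overlapped with medians of 51 and 66 UMIs.

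Interferon-response genes were lower as a list in SPP1-nAb neutrophils. In cluster 2, described below, they were not (5345 CPM with IgG and 5629 CPM with SPP1-nAb). The list of 20 genes summed to 7590 CPM with IgG and to 5371 CPM with SPP1-nAb (log2 ratio -0.50, -0.56 to -0.44), and the median log2 ratio of its 15 genes with enough UMIs was -0.45, against 0.06 over all 2345 genes. Of those 15 genes, 7 were at least 1.5-fold lower with SPP1-nAb and 0 were higher. Among all 2345 genes, 111 (4.73%) were at least that much lower, 156 (6.65%) higher and 267 (11.4%) either, and these shares are the background of every list count given here. Monocytes chosen by rule (*Ly6c2*, *Ccr2* and *Csf1r* each with a UMI, fewer than 10 UMIs of *S100a8* plus *S100a9*) had 8675 and 5069 CPM of the same list (log2 ratio -0.78), and all other barcodes together were at -0.36, so the list was lower with SPP1-nAb outside the neutrophils too.

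The promoters of 4 interferon-list genes are shown because they hold a motif, and they were chosen for that after the motif search. Type I interferon signals through the ISGF3 complex, which binds the interferon-stimulated response element, a repeat of the letters TTTC spaced by a pair of free bases. The 250 bases before the transcription start are printed for *Ifit3*, *Ifit1* and *Isg15*, which were at least 1.5-fold lower, and for *Rsad2*, which fell short of 1.5-fold (RefSeq, GRCm38.p6, gene strand, 5′ to 3′), with matches to TTTCNNTTTC or its reverse complement GAAANNGAAA in capitals.
Ifit3, chr19:34583279-34583528, plus strand: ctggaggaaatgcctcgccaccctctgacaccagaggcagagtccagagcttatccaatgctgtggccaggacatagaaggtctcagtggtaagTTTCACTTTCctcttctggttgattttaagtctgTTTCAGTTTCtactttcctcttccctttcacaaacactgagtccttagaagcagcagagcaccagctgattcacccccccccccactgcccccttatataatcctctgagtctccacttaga
Ifit1, chr19:34640639-34640888, plus strand: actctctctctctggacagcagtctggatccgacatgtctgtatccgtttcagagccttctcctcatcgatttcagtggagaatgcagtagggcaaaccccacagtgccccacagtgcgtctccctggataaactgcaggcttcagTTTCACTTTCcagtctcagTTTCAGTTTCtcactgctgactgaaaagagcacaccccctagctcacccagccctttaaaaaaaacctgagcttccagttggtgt
Isg15, chr4:156200819-156201068, minus strand: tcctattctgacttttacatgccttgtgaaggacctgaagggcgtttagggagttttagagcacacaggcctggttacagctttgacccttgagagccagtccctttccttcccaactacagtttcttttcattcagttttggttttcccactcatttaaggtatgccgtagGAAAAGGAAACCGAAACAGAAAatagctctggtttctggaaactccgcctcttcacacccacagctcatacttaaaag
Rsad2, chr12:26456453-26456702, minus strand: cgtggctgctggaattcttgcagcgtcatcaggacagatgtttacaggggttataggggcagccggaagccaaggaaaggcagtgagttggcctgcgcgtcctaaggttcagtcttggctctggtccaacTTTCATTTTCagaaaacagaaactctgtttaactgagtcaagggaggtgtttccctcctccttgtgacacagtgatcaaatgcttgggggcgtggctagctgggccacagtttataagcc
*Ifit3* held 2 matches, 156 to 147 and 122 to 113 bases before the start, and *Ifit1* held 2, at 104 to 95 and 85 to 76. *Isg15* held 3 overlapping matches between 78 and 57 bases before the start, and *Rsad2* held 1, at 120 to 111. A match was found in 7 of the 17 list genes with a window (*Ifit1*, *Ifit3*, *Ifit3b*, *Isg15*, *Rsad2*, *Gbp2* and *Bst2*), in 978 of 32851 windows read (2.98%), in 3.46% of 27025 genes and in 86 of 1873 genes of the comparison (4.59%). Of the 7 list genes with enough UMIs that were at least 1.5-fold lower, *Ifit2*, *Slfn4*, *Ifitm3* and *Isg20* held none. *Gbp2*, which held 1, lay the other way on few UMIs (10 and 49, log2 ratio 1.07). A match is a description of the letters and not a binding site shown by these data.

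*Ifit3* and *Ifit1*, interferon-induced proteins that bind foreign RNA, had the largest differences downward among genes eligible by level. *Ifit3* had 110 UMIs in 36 IgG neutrophils (236 CPM) and 64 UMIs in 30 SPP1-nAb neutrophils (59.0 CPM), a log2 ratio of -2.00 (-2.47 to -1.54). *Ifit1* was at 146 and 47.9 CPM, a log2 ratio of -1.61 (-2.16 to -1.06). Both genes were carried by few cells. The 10 cells with most UMIs held 60.9% and 60.9% of *Ifit3* and 51.5% and 71.2% of *Ifit1*. Cluster 4, described below, held 89 of the 174 *Ifit3* UMIs of both libraries. The intervals do not cover the spread between cells. The near-identical copy *Ifit3b* may share reads with *Ifit3*, so the split between them is uncertain. *Isg15*, a ubiquitin-like modifier, was at 1420 and 710 CPM (log2 ratio -1.001, -1.15 to -0.85), while it was at 1237 and 629 CPM in monocytes and 477 and 316 CPM in all other barcodes. *Ddx60*, an interferon-induced helicase, was at 129 and 48.8 CPM (-1.40), *Slfn4*, a schlafen protein of myeloid cells, at 961 and 563 CPM (-0.77), and *Ifitm3*, which restricts viral entry, at 1735 and 1121 CPM (-0.63). *Isg20*, an exonuclease, was at 184 and 120 CPM (-0.62), and *Ifit2* at 109 and 65.4 CPM (-0.74). The list was not uniform, since *Gbp2*, a guanylate-binding protein with too few UMIs for the comparison, was at 21.4 and 45.2 CPM (1.07), *Ifitm1* was at 901 CPM with IgG and 1125 CPM with SPP1-nAb (0.32), and *Rsad2*, the antiviral enzyme viperin, was at 244 and 179 CPM (-0.45), short of 1.5-fold. With at least 3 further markers required of a neutrophil, *Isg15* was at -0.58, *Ifitm3* at -0.49, *Isg20* at -0.46 and *Ifit2* at 0.056, all short of 1.5-fold, whereas *Ifit3*, *Ifit1*, *Ddx60* and *Slfn4* stayed past it under every alternative run.

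The same order was seen in the share of cells. With each cell thinned to 1000 UMIs (257 IgG and 591 SPP1-nAb neutrophils, 42 and 46 shallower cells left out), a UMI of *Ifit1*, *Ifit3*, *Isg15* or *Rsad2* was found in 42.4% of IgG neutrophils (36.3 to 48.7) and in 27.4% of SPP1-nAb neutrophils (23.9 to 31.2). Without thinning the shares were 44.1% and 30.9%. Mesenchymal cells, chosen by *Pdgfra* and collagen UMIs as a reference for free RNA, gave 8.88% and 13.8% at the same thinned depth (median depth before thinning 5434 and 8432 UMIs). Without thinning they gave 25.2% and 39.6%, the latter above the 30.9% of SPP1-nAb neutrophils. Since these cells were thinned from a greater depth, the thinned reference may lie too low. For single genes the SPP1-nAb neutrophils could lie near the reference. *Ifit1* was in 11.7% of IgG and 2.88% of SPP1-nAb neutrophils, against 1.70% and 2.78% of the reference cells, and *Ifit3* was in 11.3% and 3.72% (2.35 to 5.58), against 2.24% and 2.87% (1.96 to 4.05). No expression in the SPP1-nAb neutrophils was read from these shares. *Ifitm3* was in 56.0% and 46.4% of neutrophils, below the 73.1% and 76.4% of the mesenchymal cells, of which 97.4% and 97.7% had a UMI without thinning, so they give no reference for this gene. *Isg15* (38.9% and 24.0% against 5.93% and 8.90%) and *Slfn4* (43.97% and 29.1% against 0.788% and 0.371%) lay above it.

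**Figure D2:**
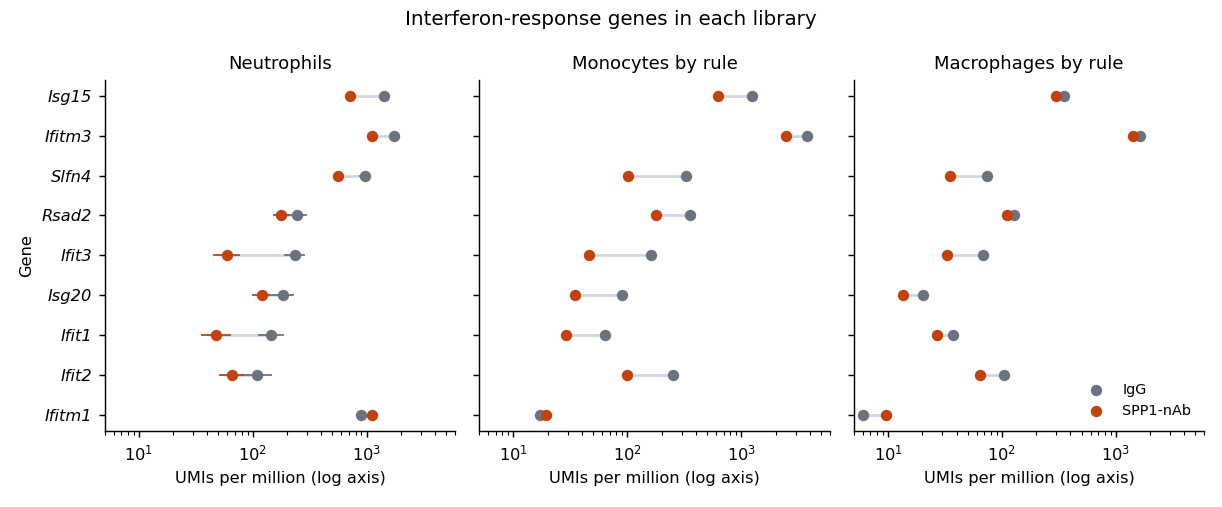
Level in CPM (log axis) of interferon-response genes in neutrophils, monocytes by rule and macrophages by rule, with a point for each library, grey lines joining the points of a gene, and, in the neutrophil panel, bars for exact Poisson 95% intervals. In neutrophils *Ifit3* stood at 236 and 59.0 CPM and *Isg15* at 1420 and 710 CPM, and *Ifitm1* lay the other way at 901 and 1125 CPM.

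Transcripts for the proteins of the azurophil granules, which are made earliest in the marrow, were nearly absent, while those of specific and gelatinase granules were present. In the azurophil list, *Elane* and *Ctsg*, both serine proteases, had 0 UMIs in either library, *Mpo*, the myeloperoxidase, had 0 in 299 IgG and 7 in 637 SPP1-nAb neutrophils, and the list of 5 genes summed to 8.58 and 11.98 CPM. For a count of 0 in a library the limit was set at 3 UMIs (a one-sided limit, lower than the upper end of a two-sided interval), which is 6.43 CPM with IgG and 2.76 CPM with SPP1-nAb. The specific granule list was at 2887 CPM with IgG and 2505 CPM with SPP1-nAb (log2 ratio -0.20), but this ratio was 0.999 with no limit on macrophage genes, 0.244 with the deeper library thinned, 0.057 without the 10% of cells with most UMIs and 0.274 in cluster 1 only, so no direction was read from it. The 2 of 6 genes past 1.5-fold, *Ngp* and *Ltf*, were lower and rested on few cells, as described below. Of its genes, *Hp*, haptoglobin, was at 879 and 870 CPM, *Pglyrp1* at 498 CPM in both libraries and *Lcn2*, the iron-siderophore binder lipocalin 2, at 401 and 375 CPM. The gelatinase granule list was at 877 and 1063 CPM (0.28, 0.11 to 0.44, with a median gene at -0.19 and 0 of 3 genes past 1.5-fold). Within it, *Mmp9*, gelatinase B, was at 478 and 712 CPM (0.57, 0.36 to 0.80), and the thinned share of cells with a UMI was 31.9% and 46.2% against 0.249% and 0.185% in mesenchymal cells. *Mmp8*, the neutrophil collagenase, was at 174 and 152 CPM.

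The late-precursor genes *Ngp*, *Camp* and *Ltf* rested on few cells. *Ngp*, neutrophilic granule protein, had 281 UMIs over 3 cells with IgG and 352 UMIs over 7 cells with SPP1-nAb, of which a single cell in each library held 279 and 303. *Camp*, which encodes cathelicidin, had 143 UMIs in 1 IgG cell and 276 UMIs in 5 SPP1-nAb cells, 256 of them in a single cell. *Ltf*, lactotransferrin, had 57 of 66 and 70 of 101 UMIs in a single cell. The log2 ratios of *Ngp* (-0.89) and *Ltf* (-0.60) therefore compared a pair of cells, and without the top cell of each library they were 3.40 and 0.57. Outside the neutrophils, the same 3 genes had 79 UMIs in the IgG library and 4851 in the SPP1-nAb library, where 10 barcodes held 4574 of them. All 10 had at least 10 UMIs of *S100a8* plus *S100a9* and a UMI of *C1qa*, *C1qb* or *Csf1r*, which the rule leaves out, their median depth was 7869 UMIs, and 3 had a UMI of the mitotic genes *Mki67* or *Top2a*.

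The other neutrophil effector genes were close between the libraries. The S100 and annexin list was at 66998 and 63446 CPM (log2 ratio -0.08, 0 of 7 genes past 1.5-fold), the stefin A list of cysteine protease inhibitors at 971 and 921 CPM (-0.08, 0 of 2) and the NADPH oxidase list at 2844 and 3053 CPM (0.10, 0 of 6). Reads of the stefin A genes can be split among near-identical copies, so single members are uncertain. *Ncf1*, a cytosolic subunit of the oxidase, was at 429 and 448 CPM. *Padi4*, the enzyme that citrullinates histones in extracellular traps, was at 25.7 and 24.0 CPM.

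Chemokine ligands were higher in SPP1-nAb neutrophils, at 21945 CPM with IgG and 28024 CPM with SPP1-nAb (log2 ratio 0.35, 0.32 to 0.39). All other barcodes were also higher, at 11285 and 13539 CPM (0.26), as were macrophages (0.14), while monocytes were at 18127 and 15860 CPM (-0.19). The median of its 9 genes was 0.46, with 3 (*Cxcl3*, *Ccl2* and *Ccl9*) at least 1.5-fold higher, against 6.65% of all genes, and 0 lower. Within the largest of the neutrophil clusters alone the direction turned (-0.10). *Cxcl3*, a CXCR2 ligand (GRCm39 chromosome 5, 90933962 to 90937459), had the largest difference upward among eligible genes, from 135 CPM in 22 IgG cells to 486 CPM in 91 SPP1-nAb cells (1.85, 1.47 to 2.25), while its log2 ratio was 0.60 in all other barcodes, 0.68 in macrophages and -0.13 in monocytes. Its thinned share was 6.23% and 12.4% in neutrophils, against 0.664% and 1.02% of mesenchymal cells. *Cxcl2*, another CXCR2 ligand, was at 16914 and 20949 CPM (0.31, 0.27 to 0.35) and had a UMI in 249 of 299 and 563 of 637 neutrophils. *Ccl3* and *Ccl4*, which draw monocytes and T cells, were at 1087 and 1500 CPM (0.46) and at 1711 and 2466 CPM (0.53). *Ccl2*, the monocyte attractant, was at 75.1 and 253 CPM (1.76). Its thinned share of cells was 7.00% and 7.28%, against 11.3% and 16.1% of mesenchymal cells. Without thinning, 27.2% and 42.1% of the mesenchymal cells had a UMI. They therefore give no reference for this gene, and no expression was read from the share. The log2 ratio of *Ccl2* was 2.32 with free RNA subtracted, 2.33 with at least 20 S100 UMIs, 2.63 with at least 3 further markers and 1.07 in cluster 1 only. It was 0.79 without clusters 5 and 6, which were led by genes of other cells, 0.50 with no limit on macrophage genes and 0.43 without the 10% of cells with most UMIs, the last 2 short of 1.5-fold, and the part of other cells' *Ccl2* in the difference was not tested. *Ccl9* was at 25.7 and 84.8 CPM (1.72), against 387 and 566 CPM in all other barcodes, and was at 0.48 in cluster 1 only.

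The cytokine list was lower in sum, of which *Il1b* made up 70.5%, and slightly higher by the median of its genes (0.17). The list summed to 16813 CPM with IgG and 14732 CPM with SPP1-nAb (log2 ratio -0.19), with 2 of 10 genes higher and 0 lower by 1.5-fold, against 6.65% and 4.73% of all genes. *Il1b*, the inflammasome-processed IL-1β precursor, had a UMI in 284 of 299 and 593 of 637 neutrophils and was at 12874 and 9953 CPM (-0.37, -0.42 to -0.33), against 2172 and 2105 CPM in monocytes. *Il1rn*, the receptor antagonist that opposes it, was at 1589 and 1705 CPM (0.10). *Tnf* was at 684 and 845 CPM (0.30). *Csf1*, the growth factor of macrophages, was at 373 CPM in 83 IgG cells and 722 CPM in 282 SPP1-nAb cells (0.95, 0.71 to 1.20). Of thinned neutrophils 23.0% and 36.5% had a UMI, against 9.95% and 9.64% of mesenchymal cells. Without thinning the shares were 27.8% and 44.3% of neutrophils and 40.7% and 52.6% of mesenchymal cells, which give no reference for this gene. *Tgfb1* was at 129 and 214 CPM (0.73). Neither call held throughout, since with no limit on macrophage genes *Csf1* was at 0.53 and *Tgfb1* at 0.47, both short of 1.5-fold.

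Receptors for chemoattractants and cytokines differed little. The chemoattractant receptor list was at 6181 CPM with IgG and 6140 CPM with SPP1-nAb (log2 ratio -0.01, 0 of 9 genes past 1.5-fold). *Ccrl2*, a non-signalling chemerin-binding receptor, was at 2183 and 1895 CPM, *Ccr1* at 1139 and 1205 CPM, *Cxcr4*, which retains neutrophils in marrow and marks aged cells, at 444 and 455 CPM, and *Fpr1* at 206 and 297 CPM (0.53). The cytokine receptor list was at 5973 and 5872 CPM (-0.02), with *Csf2rb*, the common chain for GM-CSF, IL-3 and IL-5, as the only 1 of 11 genes past 1.5-fold, at 187 and 298 CPM (0.67), near the 6.65% of all genes that were higher, and at 0.35 in cluster 1 only. *Il1r2* was at 3071 and 2870 CPM. The Fc receptor list was at 2320 and 2778 CPM (0.26, 0 of 3).

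Sensors of microbes and damage summed to 11327 CPM with IgG and 13583 CPM with SPP1-nAb (log2 ratio 0.26), with 1 of 12 genes past 1.5-fold, near the 6.65% of all genes that were higher. That gene was *Clec4n*, which encodes the fungal and mannan receptor dectin-2, at 956 CPM in 140 IgG cells and 1860 CPM in 420 SPP1-nAb cells (0.96, 0.81 to 1.11), and at 0.55, short of 1.5-fold, with no limit on macrophage genes. In monocytes it was at 234 and 244 CPM. Its thinned share was 45.5% and 60.4% in neutrophils against 0.830% and 1.95% in mesenchymal cells. *Clec4e*, which encodes Mincle, was at 2949 and 3479 CPM (0.24), *Clec4d* at 3112 and 3285 CPM (0.08) and *Nlrp3*, the inflammasome sensor, at 1233 and 1660 CPM (0.43).

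Genes that bear on SPP1 itself were examined because its protein was the target of the antibody. Among its receptors, *Cd44* was at 1338 CPM in 243 IgG cells and 1868 CPM in 557 SPP1-nAb cells (log2 ratio 0.48, 0.35 to 0.61), and in monocytes the log2 ratio was 0.15. The integrin subunits *Itgb1* and *Itga4* were at 210 and 193 CPM and at 163 and 126 CPM. The SPP1 receptor list was at 1864 and 2321 CPM (0.32), of which *Cd44* made up 78.2%, the median of its tested genes was -0.13, and 0 of its 3 genes with enough UMIs passed 1.5-fold. *Spp1* was at 444 CPM with IgG and 281 CPM with SPP1-nAb (-0.66, -0.92 to -0.40), with a UMI in 28 and 90 neutrophils. A single IgG neutrophil held 139 of the 207 UMIs, however, and without the top cell of each library the log2 ratio was 0.79. In all other barcodes *Spp1* was at 533 and 913 CPM (0.78). The thinned share of neutrophils with a UMI was 8.56% and 10.8%, against 3.73% and 5.65% of mesenchymal cells and 22.7% and 24.3% of monocytes. Without thinning, 9.36% and 14.1% of neutrophils had a UMI, below the 10.5% and 17.5% of mesenchymal cells. No *Spp1* expression in the neutrophils was read from these shares.

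Adhesion and survival genes differed little as lists. Of their genes 1 of 8 and 2 of 12 passed 1.5-fold, against 6.65% of all genes higher and 11.4% in either direction, and nothing is read from these counts. The adhesion list was at 4375 and 5008 CPM (log2 ratio 0.20, 1 of 8 genes higher), the gene being *Icam1*, at 169 and 282 CPM (0.73). *Cd9*, a tetraspanin, was at 1602 and 2000 CPM (0.32). The survival and apoptosis list was at 9125 and 9580 CPM (0.07), with *Fas*, the death receptor, at 232 and 396 CPM (0.77) and *Cflar*, its intracellular inhibitor, at 131 and 208 CPM (0.67) as the 2 of 12 genes past 1.5-fold. With no limit on macrophage genes *Icam1*, *Fas* and *Cflar* were at 0.57, 0.44 and 0.40, all short of 1.5-fold. *Mcl1*, on which neutrophil survival depends, was at 2398 and 2679 CPM (0.16), *Bcl2a1b* at 2044 and 2431 CPM (0.25) and the kinase *Pim1* at 2466 and 1802 CPM (-0.45). The copies *Bcl2a1a*, *Bcl2a1b* and *Bcl2a1d* are near-identical and their split is uncertain. The list of tissue-adapted and aged neutrophils was at 3976 and 4624 CPM (0.22), with *Icam1* and *Ctsb* (0.61, and 0.42 with at least 1 further marker) higher and *Spp1* lower among 8 genes. Its member *Siglecf*, seen on tissue neutrophils, had a UMI in 14 IgG and 45 SPP1-nAb cells (42.9 and 47.0 CPM) and in 0 of the thinned mesenchymal cells.

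Transcription factors and immediate feedback genes had no common direction. The transcription factor list was at 12477 and 11283 CPM (log2 ratio -0.15, median gene 0.04), with *Fos* (1503 and 663 CPM, -1.18) and *Egr1* (727 and 343 CPM, -1.08) as the 2 of 11 genes past 1.5-fold, both lower, as were 4.73% of all genes. Without clusters 5 and 6, which were led by genes of other cells, *Fos* was at -0.89 and *Egr1* at -0.33. In cluster 1 only they were at -1.19 and -0.97. Both are immediate-early genes and had a UMI in 84.0% and 77.4% (*Fos*) and 87.4% and 77.0% (*Egr1*) of thinned mesenchymal cells, and the part of such transcripts in the difference was not tested. *Cebpb*, a driver of stress granulopoiesis, was at 5775 and 5602 CPM. The NF-κB feedback list was at 11553 and 12853 CPM (0.15, 0 of 11), with *Nfkbia*, the inhibitor IκBα, at 4190 and 5407 CPM (0.37).

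Metabolic lists were higher with SPP1-nAb where they covered glycolysis and iron. The glycolysis and hypoxia list was at 3165 CPM with IgG and 4370 CPM with SPP1-nAb (log2 ratio 0.47, 0.38 to 0.55), its median gene was at 0.42, against 0.06 over all genes, and 1 of 11 genes was at least 1.5-fold higher, near the 6.65% of all genes. That gene was *Egln3*, an oxygen-sensing prolyl hydroxylase, at 49.3 and 97.7 CPM (0.99, and 0.37 with no limit on macrophage genes). *Gapdh* was at 618 and 916 CPM (0.57), *Pkm* at 369 and 492 CPM (0.42) and *Hcar2* at 881 and 1317 CPM (0.58). All other barcodes had 1879 and 2287 CPM of this list (0.28). The iron list was at 28111 and 37057 CPM (0.40, 0.37 to 0.43), close to the 0.46 of all other barcodes, with the ferritin chains *Fth1* at 21973 and 28724 CPM (0.39) and *Ftl1* at 5840 and 7712 CPM (0.40). *Hmox1*, heme oxygenase 1, was at 53.6 CPM in 20 IgG cells and 305 CPM in 128 SPP1-nAb cells (2.51, 1.92 to 3.16), and *Slc40a1*, the iron exporter, at 70.8 and 110 CPM (0.63), the 2 of 5 genes past 1.5-fold (6.65% of all genes were higher), but *Slc40a1* was at 0.098 with no limit on macrophage genes. The thinned share for *Hmox1* was 3.89% and 13.7% in neutrophils and 4.98% and 12.5% in mesenchymal cells. Without thinning, 21.0% and 48.8% of the mesenchymal cells had a UMI. They therefore give no reference for this gene, and no expression was read from the share. Within the neutrophils, *Hmox1* was highest over the other members in cluster 3, described below. There 47.5% of cells had a UMI, at 1044 CPM against 160 CPM in the other members. Lipid mediator genes were at 5016 and 4569 CPM (-0.13, median gene 0.04), with *Ptgs2*, cyclooxygenase 2, lower at 748 and 485 CPM (-0.63) and *Alox5*, 5-lipoxygenase, higher at 45.0 and 74.6 CPM (0.73) among 7 genes, and neither held throughout (-0.54 with at least 20 S100 UMIs and 0.27 with no limit on macrophage genes). The DNA replication and mitosis list had 39 and 170 UMIs (83.6 and 157 CPM), and *Pcna* was its only gene with enough UMIs. Of the 170 UMIs, 27 and 60 lay in clusters 5 and 6, led by genes of other cells. The list was at 62.1 and 306 CPM in cluster 5, 136 and 506 CPM in cluster 6 and 101 and 105 CPM in cluster 1. No difference in the neutrophils was read from it.

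**Figure D3:**
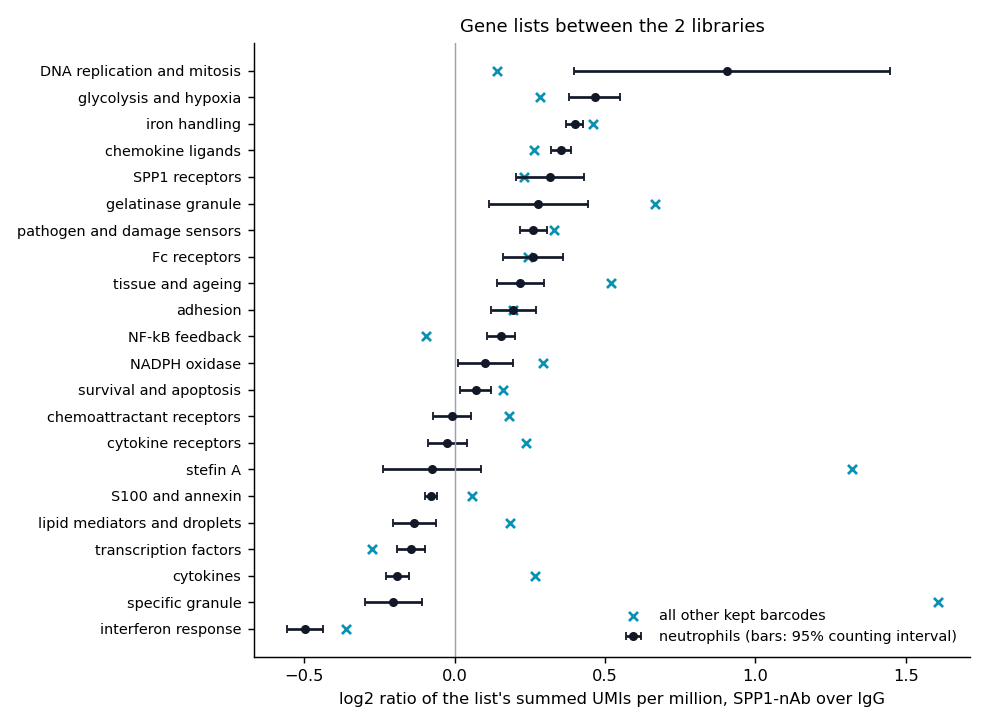
log2 ratio, SPP1-nAb over IgG, of the summed CPM of each gene list, in neutrophils (dots, with exact 95% intervals of counting error) and in all other kept barcodes (crosses). The interferon list was the lowest of the lists plotted (-0.50), and the chemokine, iron and glycolysis lists lay above 0 (0.35, 0.40 and 0.47).

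Other genes with large differences lay outside the lists. Lower with SPP1-nAb were *Selenon*, a selenoprotein of the endoplasmic reticulum (165 and 71.9 CPM, log2 ratio -1.20), *Nt5c2*, a nucleotidase (118 and 56.2 CPM, -1.07), *Itpr2*, an inositol trisphosphate receptor (163 and 79.2 CPM, -1.04), *Cwc25*, a splicing factor (493 and 248 CPM, -0.99), *Cmtr1*, an mRNA cap methyltransferase (111 and 57.1 CPM, -0.96), and the gene model *Gm13822* (139 and 70.0 CPM, -0.99). In cluster 1 alone *Cmtr1* was at -0.14. In all other barcodes *Selenon* and *Cwc25* lay at 0.04 and 0.39. Higher with SPP1-nAb, after *Cxcl3*, were *Upp1*, uridine phosphorylase (64.3 and 147 CPM, 1.19), *Atp6ap1*, an accessory subunit of the proton pump (72.9 and 159 CPM, 1.13), *Prdm2*, a zinc finger protein (47.2 and 102 CPM, 1.12), *Tnfrsf23*, a decoy receptor for TRAIL (57.9 and 124 CPM, 1.10), and *Cacnb2*, a calcium channel subunit (40.7 and 86.6 CPM, 1.09, but 0.32 with no limit on macrophage genes). *F10*, coagulation factor X, was at 176 and 372 CPM (1.08), with a thinned share of 7.78% and 18.8%, and was also higher in all other barcodes (0.91). *Egr3* (68.6 and 142 CPM, 1.05) and *Atf2* (51.5 and 106 CPM, 1.04), both transcription factors, and *1110002J07Rik* (64.3 and 135 CPM, 1.07) completed the list, the latter with 43.3% of its IgG UMIs in 1 cell and a log2 ratio of 0.32 with at least 3 further markers. 

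The neutrophils fell into 6 Leiden clusters, made without 1661 genes (those with at least 20 UMIs that differed by at least 1.5-fold between the libraries, and the interferon list), and kept here by number. Their leading genes describe them and are not results. Cluster 1 (488 cells) was led by *Bcl2a1d*, *Bcl2a1b*, *Bcl2a1a*, *Clec5a*, *Olr1*, *Cmtm7*, *Mthfsl* and *Mmp9*, and cluster 2 (278 cells) by *Retnlg*, *Lrg1*, *Wfdc21*, *Il15*, *Mmp8*, *Lcn2*, *Gda* and *Stfa2l1*, with a median of 135.5 *S100a8* plus *S100a9* UMIs against 47 in cluster 1. Cluster 3 (80 cells) was led by *Mreg*, *Gclc*, *Nceh1*, *Pdcd1lg2*, *Slc31a2*, *Gclm*, *A930007I19Rik* and *Cstb*, of which *Gclc* and *Gclm* encode the subunits of the glutathione-making ligase. Cluster 4 (32 cells) was led by *Ifit3*, *Gbp2*, *Ifit2*, *Cxcl10*, *Ifi47*, *Ifit1*, *Rsad2* and *Ddx60*, of which all but *Cxcl10* and *Ifi47* took no part in the clustering. Cluster 5 (31 cells) was led by fibroblast genes such as *Apod*, *Dcn* and *Col1a2*, with a median of 4648 UMIs and other-lineage markers in 83.9% of its cells. Cluster 6 (27 cells) had *H2-Aa*, *H2-Ab1* and *Tnip3* among its leading genes, with 5837 UMIs and 70.4%. The medians of clusters 1 to 4 lay between 1268 and 1520.5 UMIs.

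Cluster 1 was a larger and cluster 2 a smaller share of the SPP1-nAb neutrophils. Cluster 1 was 44.8% (39.1 to 50.6) of the IgG and 55.6% (51.6 to 59.5) of the SPP1-nAb neutrophils, and cluster 2 was 34.8% (29.4 to 40.5) and 27.3% (23.9 to 31.0), with intervals that did not overlap for cluster 1 and did for cluster 2. Cluster 3 was 8.36% and 8.63%, cluster 4 was 4.01% and 3.14% and cluster 6 was 2.68% and 2.98%. Cluster 5 was 5.35% (3.09 to 8.54) and 2.35% (1.32 to 3.85).

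**Figure D4:**
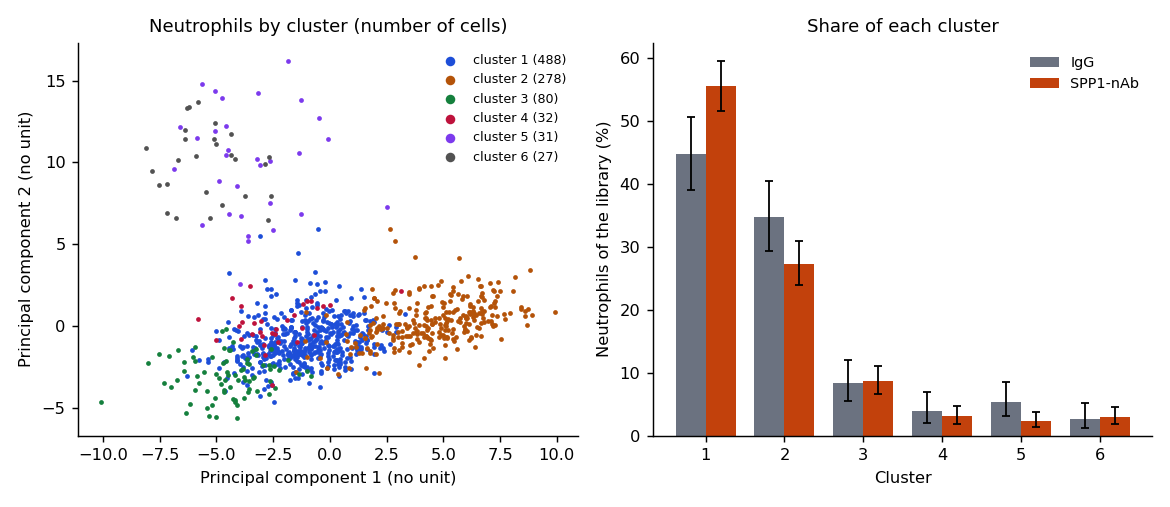
Left, neutrophils of both libraries on the first principal components (no unit), coloured by cluster with the number of cells. Right, each cluster as a percentage of the library's neutrophils, with exact 95% intervals. Cluster 1 was 44.8% of IgG and 55.6% of SPP1-nAb neutrophils.

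The interferon list differed more in cluster 1 than in clusters 2 to 4. There the list was at 9118 CPM with IgG and 4285 CPM with SPP1-nAb, while it was at 5345 and 5629 CPM in cluster 2, 4206 and 3800 CPM in cluster 3 and 32769 and 31637 CPM in the small cluster 4. In the clusters led by genes of other cells it was also lower with SPP1-nAb, at 3736 and 2519 CPM in cluster 5 and 9083 and 5882 CPM in cluster 6. *Isg15* was lower with SPP1-nAb in clusters 1, 2 and 4, with 1697 and 404 CPM in cluster 1, 829 and 627 CPM in cluster 2 and 6899 and 6442 CPM in cluster 4. *Il1b* was at 20826 and 12415 CPM in cluster 1 and at 12218 and 12758 CPM in cluster 2. The chemokine list was at 32582 and 30319 CPM in cluster 1, at 10844 and 18832 CPM in cluster 2 and at 58049 and 73364 CPM in cluster 3. In cluster 4 it was at 37204 and 34937 CPM. *Cxcl3* was at 208 and 451 CPM in cluster 1, 76.8 and 664 CPM in cluster 2 and 230 and 1263 CPM in cluster 3. *Clec4n* was higher with SPP1-nAb in each of clusters 1 to 4, at 1459 and 2601, 215 and 404, 3025 and 4631, and 985 and 2285 CPM. *Cd44* was likewise at 1614 and 2044, 1428 and 1979, 1152 and 1661, and 1232 and 1967 CPM. The iron list was highest in cluster 3, at 86253 and 100387 CPM, and *Hmox1* was there at 346 and 1320 CPM. The specific granule list was highest in cluster 2, at 7787 and 6540 CPM. How far these within-cluster differences differ from each other was not tested.

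**Figure D5:**
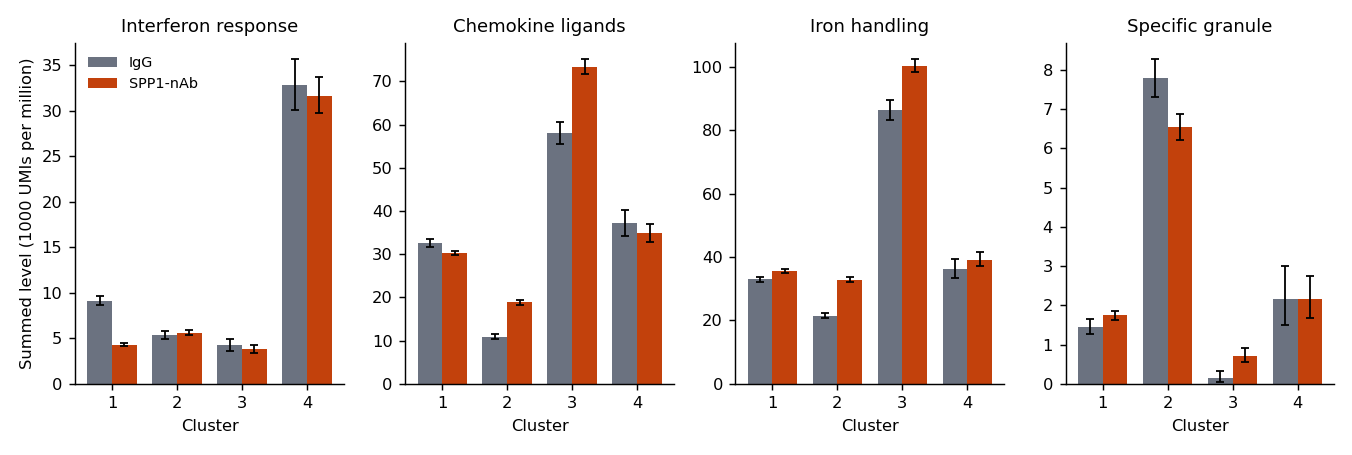
Summed level (in units of 1000 CPM) of 4 gene lists in clusters 1 to 4 of the neutrophils, for the IgG and the SPP1-nAb library, with exact Poisson 95% intervals. The interferon list differed between the libraries in cluster 1 (9118 and 4285 CPM) and was highest in cluster 4 in both (32769 and 31637 CPM).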

How the data were processed

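Per the labels and the study's methods, cells were sorted from digested muscle and sequenced by droplet-based scRNA-Seq, and the submitters' processing notes name Cell Ranger 8.0.0 and GRCm39, while the matrix headers name version 9.0.1 and the methods also name GRCm38. The authors deposited filtered matrices of raw UMI counts for 32287 features and 23779 (IgG) and 25069 (SPP1-nAb) barcodes. No normalized values were used. From these counts the rule was applied, UMIs were summed per library and gene, and ratios, exact intervals and thinned shares were computed in Python 3.11.15 (numpy 2.4.6, scipy 1.17.1, pandas 2.3.3). Free RNA was not removed and no doublet caller was run. Clusters were made with 1000 variable genes, 15 principal components, 15 neighbours and resolution 0.6 (leidenalg 0.10.2); resolutions of 0.3 and 1 gave 5 and 10 clusters. The computations were tested on simulated data.

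A difference was counted when a gene with at least 100 UMIs over both libraries differed by at least 1.5-fold. Genes were named by a rule: per direction the 10 with the largest ratio among 1308 genes with at least 20 cells and a level at or above that of other barcodes; the markers; per list the most abundant and most different genes; the 15 genes highest over other barcodes; and the 8 leading genes per cluster. Further list members were named for their role, and some genes are not reported here. The members and gene lists were chosen with earlier results of these data known. Of the list genes, 3 were not found in the feature tables. Motif windows came from RefSeq tables for GRCm38.p6 and gene positions from GRCm39.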

Additional observations from a re-analysis of the deposited data

Results flagged for a closer look

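The 4 genes below had log2 ratios of opposite sign in neutrophils and in all other kept barcodes, and the difference between these sets was not tested. They were not the only ones, since *Egr3* (1.05 and -0.56), *Cwc25* (-0.99 and 0.39) and *Cacnb2* (1.09 and -0.15) also had opposite signs. *Ngp* was at -0.89 in neutrophils and 8.21 in the other barcodes, where 10 SPP1-nAb barcodes held most UMIs of *Ngp*, *Camp* and *Ltf*. *Ltf* was at -0.60 and 2.89. *Spp1* was at -0.66 and 0.78, and a single IgG neutrophil held 67.2% of its UMIs in that library. *Alox5* was at 0.73 (on 21 and 81 UMIs) and -0.89.

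The reporter transcript *Gfp*, which no comparison used, was found at 28 UMIs in the neutrophils of the IgG library and at 92 UMIs in those of the SPP1-nAb library. Thinned to 1000 UMIs, 5.06% and 5.41% of neutrophils had a UMI, against 5.23% and 5.19% of mesenchymal cells and 19.5% and 22.9% of monocytes. Without thinning, 20.0% and 26.6% of the mesenchymal cells had a UMI, so they give no reference for free RNA here. No expression was read from the neutrophil share.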

How the results depend on the processing

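No paired analysis was possible because each condition had 1 library. Of 1373 list and gene values under alternatives, 1119 lay within the counting interval of the reported value. A change of sign was seen in 52, over 8 lists and 11 genes, and 13 of these were in genes past 1.5-fold. These values covered 86 lists and genes and not all 267 genes past 1.5-fold. The genes followed were partly chosen for large ratios in these data. Of the 44 followed genes past the fold, 40 kept their direction throughout but only 19 stayed past 1.5-fold. With no limit on macrophage genes, *Fas* was at 0.44, *Icam1* at 0.57, *Ccl2* at 0.50, *Csf1* at 0.53, *Clec4n* at 0.55, *Tgfb1* at 0.47, *Cflar* at 0.40, *Egln3* at 0.37, *Alox5* at 0.27, *Cacnb2* at 0.32 and *Ifitm3* at -0.48. The share difference (1.29 points) was 1.55 with at least 1 further marker, 0.949 with at least 3, 2.03 with no limit on macrophage genes and 0.908 without cells with other-lineage markers, and stayed between 1.16 and 1.43 under the other alternatives. The count of genes past 1.5-fold (267) was 460 with no limit on macrophage genes, 143 without cells with other-lineage markers, 173 without the 10% of cells with most UMIs, 649 and 105 with at least 50 and 200 UMIs per gene, 4839 with no minimum and 145 in cluster 1 only. Of the calls, 58.4% were higher with SPP1-nAb, and 47.7% (123 higher, 135 lower) with scaling by the median ratio over genes and 39.4% (1907 higher, 2932 lower) with no minimum of UMIs. The interferon list (-0.50) was -0.37 with at least 20 *S100a8* plus *S100a9* UMIs, -0.32 with at least 3 further markers, -0.60 without the 10% of cells with most UMIs, and, chosen after seeing the data, -0.57 without clusters 5 and 6 and -1.09 in cluster 1 only. The chemokine list ranged from -0.10 to 0.40, the specific granule list from -0.32 to 0.999, *Camp* from -0.38 to 2.25, *Lcn2* from -0.22 to 1.16, *Retnlg* from -0.90 to 0.56, *Cxcl2* from -0.21 to 0.37 and *Tnf* from -0.17 to 0.42. The S100 and annexin, stefin A, chemoattractant receptor, NADPH oxidase, survival and NF-κB feedback lists and *S100a8* and *S100a9*, all near 0, also changed sign. Among genes past 1.5-fold, the values that changed sign were *Ngp* at 1.59 with no limit on macrophage genes, 0.26 with the deeper library thinned and 1.44 without the deepest 10%; *Ltf* at 1.36, 0.22 and 0.44 under the same alternatives and 0.056 in cluster 1 only; and *Spp1* at 0.91 above 500 genes, 1.52 with at least 3 further markers, 0.22 with no limit on macrophage genes, 0.30 without cells with other-lineage markers and 1.07 in cluster 1 only. *Ifit2* was at 0.056 with at least 3 further markers. In *Ngp*, *Ltf* and *Spp1* 1 IgG cell held most of the IgG UMIs; the cause of the changes was not tested. The free-RNA part subtracted was 2.41% (IgG) and 4.33% (SPP1-nAb), estimated from cells with at most 2 UMIs of 4 fibroblast genes, which keeps it low by construction; over all neutrophils the same estimate was 79.2% and 13.5%, and without clusters 5 and 6 it was 2.44% and 4.98%. Depth limits genes with few UMIs most, and 1 library per condition limits every difference.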
